A study of Mus musculus with 3 samples.

Results

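Chemokine ligands were read in mouse blood monocytes as a group of 9 named genes: Ccl5, Ccl6, Ccl4, Ccl3, Ccl9, Cxcl2, Ccl2, Cxcl10 and Cxcl16. The group was given by name, and all 9 were found by symbol among the 55536 genes of the deposited gene tables. The series measured total RNA of primary monocytes from peripheral blood of C57BL/6J mice aged 5 to 6 weeks, with no allele, agent or second condition. It holds 3 libraries of this 1 group, numbered as biological replicates 1, 2 and 3, each made from 100 ng of RNA freed of ribosomal RNA with a ScriptSeq kit. The libraries share 1 donor record and carry no sex, so the p-values measure a spread between these 3 libraries that may be partly technical. The isolation protocol is named in the labels, without its gate.

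Chemokines are small secreted proteins that bind G protein-coupled receptors on leukocytes and direct their migration along a gradient. CC ligands, whose first cysteines are adjacent, mainly recruit monocytes, T cells and natural killer cells, while CXC ligands of the Cxcl2 type recruit neutrophils and those of the Cxcl10 type recruit activated lymphocytes. Blood monocytes carry chemokine receptors that guide them out of marrow and into tissue, and after stimulation they become a source of ligands themselves. Several ligand genes are induced through NF-kappaB or interferon signalling, and their mRNAs are short-lived.

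Library 3 stood apart from libraries 1 and 2, and the means and pair differences of the ligands that rest on it are also given without it. Expected counts, the estimated number of reads per gene, summed in libraries 1, 2 and 3 to 27.2, 26.5 and 19.9 M. A level of 1 TPM (a relative abundance per transcript length, scaled to a fixed total) stood for 112, 121 and 76.0 counts where a transcript had 1000 bases. Xist, the RNA of the inactive X chromosome of female cells, had 0, 0 and 6.84 TPM in libraries 1, 2 and 3, from 0, 0 and 4348 counts. The size range recorded in the labels reached 594, 491 and 1000 bp. Library 3 thus differs in this mark of sex, and sex, size range and cell makeup cannot be told apart in its differences from libraries 1 and 2. All 10 monocyte markers, such as Lyz2 and Ctss, lay above 1 TPM, with summed levels of 2554, 2145 and 1509 TPM. All 11 natural killer cell markers also lay above 1 TPM, led by Gzma and Ncr1, with sums of 739, 629 and 1814 TPM. Of all protein-coding genes tested, 54.1% lay above 1 TPM. Sums of 3535, 3328 and 263 TPM for 7 red cell genes, led by Hba-a2 and Hbb-bs, of 140, 125 and 9.13 TPM for 9 neutrophil genes and of 15.4, 11.4 and 99.4 TPM for 8 platelet genes differed most between libraries. The 7 B cell genes, led by Ighm and Cd79b, summed to 96.6, 97.5 and 92.6 TPM, and the 7 dendritic cell genes, led by Bst2 and Cd209a, to 10.2, 6.77 and 4.87 TPM. The 8 tissue macrophage genes, led by Mrc1 and Cd163, summed to at most 0.85 TPM, with Vsig4, Timd4, Marco and C1qc at 0 in every library.

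The ligands fell into an expressed set of 6 genes and a set of 3 genes with at most 59 expected counts in a library. Mean levels were 138 TPM for Ccl5, 88.6 TPM for Ccl6, 66.9 TPM for Ccl4, 53.5 TPM for Ccl3, 29.6 TPM for Ccl9 and 5.59 TPM for Cxcl2, against 0.293 TPM for Ccl2, 0.267 TPM for Cxcl10 and 0.263 TPM for Cxcl16. In the deposited tables made from the reads, the 9 mean levels were 1.52 to 2.42 times these values. The 6th gene in this order, Cxcl2, thus had 19.1 times the mean TPM of the 7th, Ccl2. In a test of each gene's level against 1 TPM (edgeR quasi-likelihood, Benjamini-Hochberg adjusted p under 0.05 over all genes), 6 of the 9 ligands lay above 1 TPM, beside 43.2% of all 17678 genes tested and 54.1% of the 12984 protein-coding genes tested. None of the ligands lay below 1 TPM in the edgeR fit (0 of 9, also 0 at an unadjusted p under 0.05), beside 6.35% of all genes tested, while limma placed 3 and DESeq2 2 of them below. The same 6 genes lay above with any 1 library left out. The median of the members' mean levels was 29.6 TPM, beside 1.18 TPM over all genes tested, which include genes that do not code for protein. The ligands were chosen with earlier results of these data known, so this contrast may follow from the choice. TPM was scaled over every row, small RNAs included, and protein-coding genes held 10.9%, 9.84% and 10.7% of TPM in libraries 1, 2 and 3. Rescaled over protein-coding genes, 1 TPM became 9.16, 10.2 and 9.34 TPM, and the 3 low ligands then lay above 1 TPM as estimates without passing the test.

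**Figure D1:**
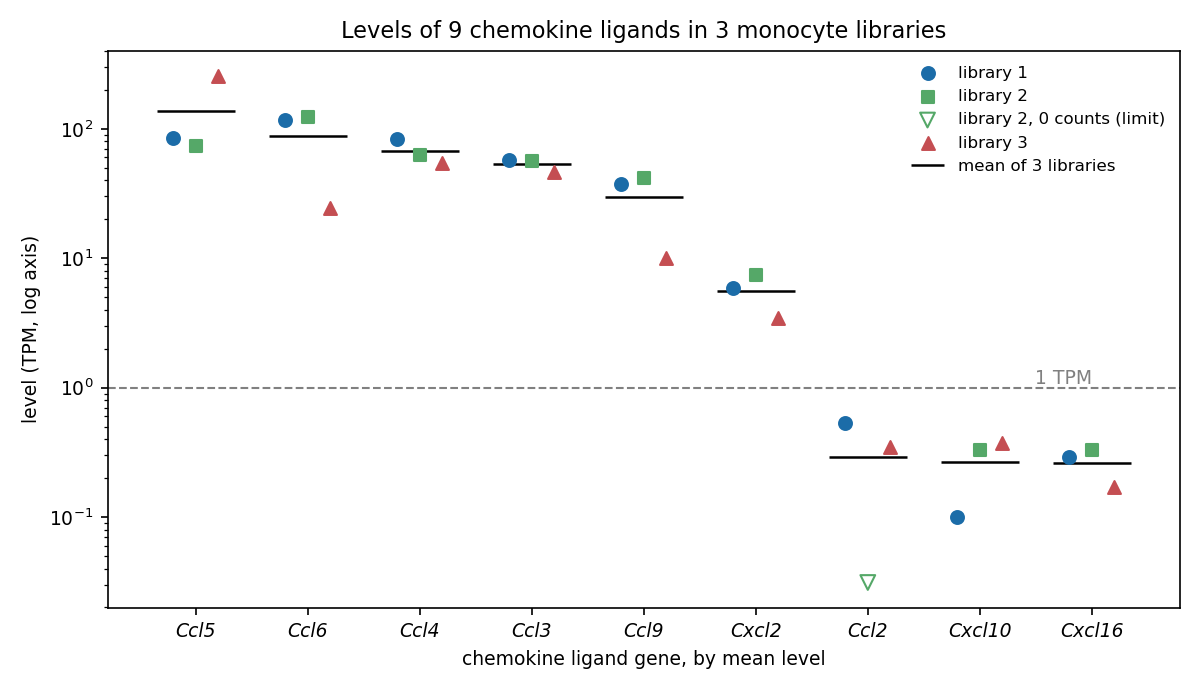
TPM of each ligand (log axis) in libraries 1, 2 and 3, with a line at the mean of 3 libraries and a dashed line at 1 TPM. Ccl5 is highest in library 3, where Ccl6, Ccl9, Ccl4, Ccl3, Cxcl2 and Cxcl16 are each lowest. Ccl3 and Ccl4 lie close together in all 3 libraries, and the open triangle marks the limit of 0.0312 TPM that 0 counts of Ccl2 allow in library 2.

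The summed level of the 9 ligands was 388, 366 and 394 TPM in libraries 1, 2 and 3, or 0.355%, 0.372% and 0.368% of protein-coding TPM. The sum thus lay within a narrow range, while its makeup differed. Ccl6 gave the largest part in libraries 1 and 2, with 30.4% and 33.8% of the sum, and Ccl5 in library 3, with 64.8%. Ccl5 held 21.74% and 20.02% in libraries 1 and 2, and Ccl6 6.14% in library 3. All 27 expected counts of the 9 genes were whole numbers within 0.005 counts.

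**Figure D2:**
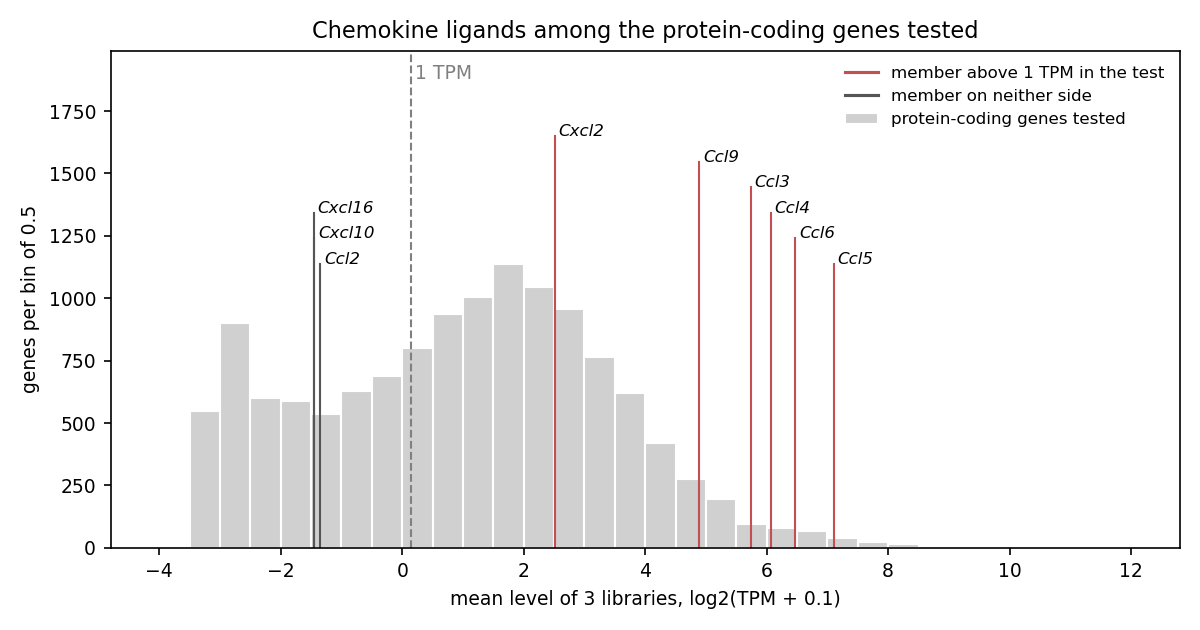
Number of tested protein-coding genes per bin of 0.5 in mean log2(TPM + 0.1), with a vertical line for each ligand at its own mean level, red where it lay above 1 TPM in the edgeR test and grey where it lay on neither side. From Cxcl2 at 5.59 TPM to Ccl5 at 138 TPM the red lines run from above the middle of the distribution into its upper tail, and the 3 grey lines lie between 0.263 and 0.293 TPM.

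Ccl3 and Ccl4, also known as MIP-1 alpha and MIP-1 beta, are made by activated macrophages and lymphocytes, and Ccl3 binds Ccr1. Ccl3 (ENSMUSG00000000982.5, chromosome 11, 83647844 to 83649355, minus strand, mm10) had 57.4, 56.8 and 46.2 TPM in libraries 1, 2 and 3, a mean of 53.5 TPM ± 6.31 (SD, n = 3), or 57.1 TPM without library 3. Its coefficient of variation of 11.8% was the smallest of the 9 ligands. Ccl4 (ENSMUSG00000018930.3, chromosome 11, 83662584 to 83664683, plus strand) had 84.1, 62.7 and 53.9 TPM, a mean of 66.9 TPM ± 15.5 (SD, n = 3), or 73.4 TPM without library 3. Both genes lay far above 1 TPM (edgeR adjusted p = 8.6e-13 for Ccl3 and 6.1e-13 for Ccl4). Ccl4 was the higher of the pair in 3 of 3 libraries, by 1.464, 1.103 and 1.167 times, a mean difference of 0.30 ± 0.22 (log2, SD, n = 3). With the sign of each library's difference flipped in every way (exact, two-sided), p was 0.25, the lowest that 3 libraries allow.

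Ccl5, also called RANTES, attracts T cells and monocytes through receptors that include Ccr1 and Ccr3 and is stored and released by natural killer cells and effector T cells. Ccl5 (ENSMUSG00000035042.2, chromosome 11, 83525778 to 83530518, minus strand) had 84.3, 73.3 and 255 TPM in libraries 1, 2 and 3, from 3503, 3392 and 6902 expected counts. The level in library 3 was thus far above the other two. The mean was 138 TPM ± 102 (SD, n = 3), and 78.8 TPM without library 3. Library 3 was 3.24 times higher than that mean of libraries 1 and 2. Ccl5 lay above 1 TPM (edgeR adjusted p = 1.6e-12) and ranked 94th of 21951 protein-coding genes by mean TPM, and 195th, 197th and 25th in libraries 1, 2 and 3.

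The natural killer cell markers moved the same way as Ccl5. Relative to the median protein-coding gene, which itself was 0.30 higher in library 3 than in libraries 1 and 2 (log2), all 11 were higher in library 3, and their summed TPM was 2.65 times higher. Set against that sum, Ccl5 stood at 11.4, 11.6 and 14.1 TPM per 100 TPM of natural killer cell markers in libraries 1, 2 and 3. Gzma alone gave 484, 379 and 1014 TPM of the sum, so ratios to it rest mostly on that gene. The corresponding values were 7.77, 9.03 and 2.55 TPM for Ccl3 and 11.4, 9.97 and 2.97 TPM for Ccl4, so these 2 ligands did not follow the markers. T cell markers were low throughout, with summed levels of 5.12, 5.81 and 8.65 TPM over 9 genes, Cd28 and Cd3g highest and none at 0 in every library. The platelet genes were also higher in library 3, by 7.42 times in sum and in 6 of the 6 genes with a mean of 1 TPM or more. The part of natural killer cells and of platelets in the Ccl5 level was not tested. In bulk RNA, fewer cells of a type and less RNA per cell cannot be told apart.

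Ccl6 and Ccl9 are CC ligands of Ccr1 that lie next to each other on mouse chromosome 11 and are made by myeloid cells. Ccl6 (ENSMUSG00000018927.3, chromosome 11, 83587882 to 83593087, minus strand) had 118, 124 and 24.2 TPM in libraries 1, 2 and 3, from 16110, 18529 and 2211 expected counts. Ccl9 (ENSMUSG00000019122.8, chromosome 11, 83572919 to 83578636, minus strand) had 37.1, 41.5 and 10.1 TPM. Both genes were nearly level between libraries 1 and 2 and low in library 3. The mean of Ccl6 was 88.6 TPM ± 55.8 (SD, n = 3), and 121 TPM without library 3, and the mean of Ccl9 was 29.6 TPM ± 17.0 (SD, n = 3), and 39.3 TPM without library 3. Library 3 was 4.99 times lower than the mean of libraries 1 and 2 for Ccl6 and 3.89 times lower for Ccl9. Both lay above 1 TPM (edgeR adjusted p = 1.3e-11 for Ccl6 and 6.7e-10 for Ccl9). Ccl6 stood 3.18, 2.98 and 2.40 times above Ccl9 in libraries 1, 2 and 3, and by the distance between centred log2 levels Ccl9 was the ligand closest to Ccl6 (0.307 over 3 libraries). These values use all transcripts of each gene. On coding transcripts alone, Ccl6 had 112, 118 and 22.7 TPM and Ccl9 20.8, 21.6 and 7.60 TPM. That is a smaller fall in Ccl9 and a wider gap between the pair.

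Ccl6 and Ccl9 were both lowest in library 3, and their promoters are shown side by side as a description. Whether the promoters have a part in these levels was not tested. Each sequence is the 250 bases before the transcription start in RefSeq (GRCm38.p6, minus strand), at chr11:83593088-83593337 for Ccl6 and chr11:83578637-83578886 for Ccl9. Capitals mark the best local alignment of the 2 promoters, 17 columns with 16 identical bases, which runs from -59 to -43 in Ccl6 and from -18 to -2 in Ccl9. Positions count back from -1, the last base before the start.
Ccl6: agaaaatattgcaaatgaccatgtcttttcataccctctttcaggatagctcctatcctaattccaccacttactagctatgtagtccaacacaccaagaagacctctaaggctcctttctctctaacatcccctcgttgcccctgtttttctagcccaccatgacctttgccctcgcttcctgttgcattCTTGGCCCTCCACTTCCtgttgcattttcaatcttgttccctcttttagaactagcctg
Ccl9: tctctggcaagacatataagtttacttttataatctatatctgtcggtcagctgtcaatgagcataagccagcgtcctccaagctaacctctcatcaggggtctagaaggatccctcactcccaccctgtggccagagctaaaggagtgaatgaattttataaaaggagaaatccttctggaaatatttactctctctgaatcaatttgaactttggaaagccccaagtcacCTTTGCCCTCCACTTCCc

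The other 9 pairs among the 5 ligand promoters in the table (Ccl3, Ccl6, Ccl9, Cxcl2 and Cxcl10) had best alignments of 8 to 11 columns. Both marked stretches contain ACTTCC, the reverse complement of GGAAGT, a motif that was added to the search after these promoters had been read. GGAAGT on either strand was found in 4 of the 5 ligand promoters (Cxcl10, Ccl9, Ccl6 and Ccl3) and in 19.7% of all 32851 promoters of the same length. Since the motif was chosen after these promoters had been read, these shares cannot show that it is more common in them. The TATA-box letters TATAAA were found in the Ccl9 promoter alone among the 5, beside 12.4% of all promoters.

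Markers of granulocytes moved the same way as Ccl6 and Ccl9. The 9 neutrophil genes summed to 9.13 TPM in library 3, against 140 and 125 TPM in libraries 1 and 2. Most of that sum was Retnlg, with 124, 114 and 0 TPM in libraries 1, 2 and 3, followed by Csf3r with 5.99, 6.64 and 8.09 TPM, while the defining neutrophil genes Ly6g and Camp were at 0 in every library. The 9 basophil, eosinophil and mast cell genes, led by Hdc and Ms4a2, summed to 8.99 TPM in library 3, against 27.6 and 29.3 TPM in libraries 1 and 2, and Epx was at 0 in every library. The 7 red cell genes fell the same way, with a sum of 263 TPM in library 3, against 3535 and 3328 TPM in libraries 1 and 2. The monocyte list summed in library 3 to 0.642 times its mean of libraries 1 and 2. Lyz2, with 1448, 1238 and 718 TPM in libraries 1, 2 and 3, and Ctss, with 497, 369 and 234 TPM, made up most of it. Other monocyte markers were not all lower in TPM: Csf1r had 69.8, 52.4 and 86.6 TPM and Tyrobp 173, 162 and 181 TPM. Relative to the median protein-coding gene, which itself was higher in library 3, 9 of the 10 genes were lower there. Per 100 TPM of monocyte markers, Ccl6 stood at 4.615, 5.766 and 1.605 TPM and Ccl9 at 1.45, 1.93 and 0.670 TPM in libraries 1, 2 and 3. The part of these cells in the levels of Ccl6 and Ccl9 was not tested.

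**Figure D3:**
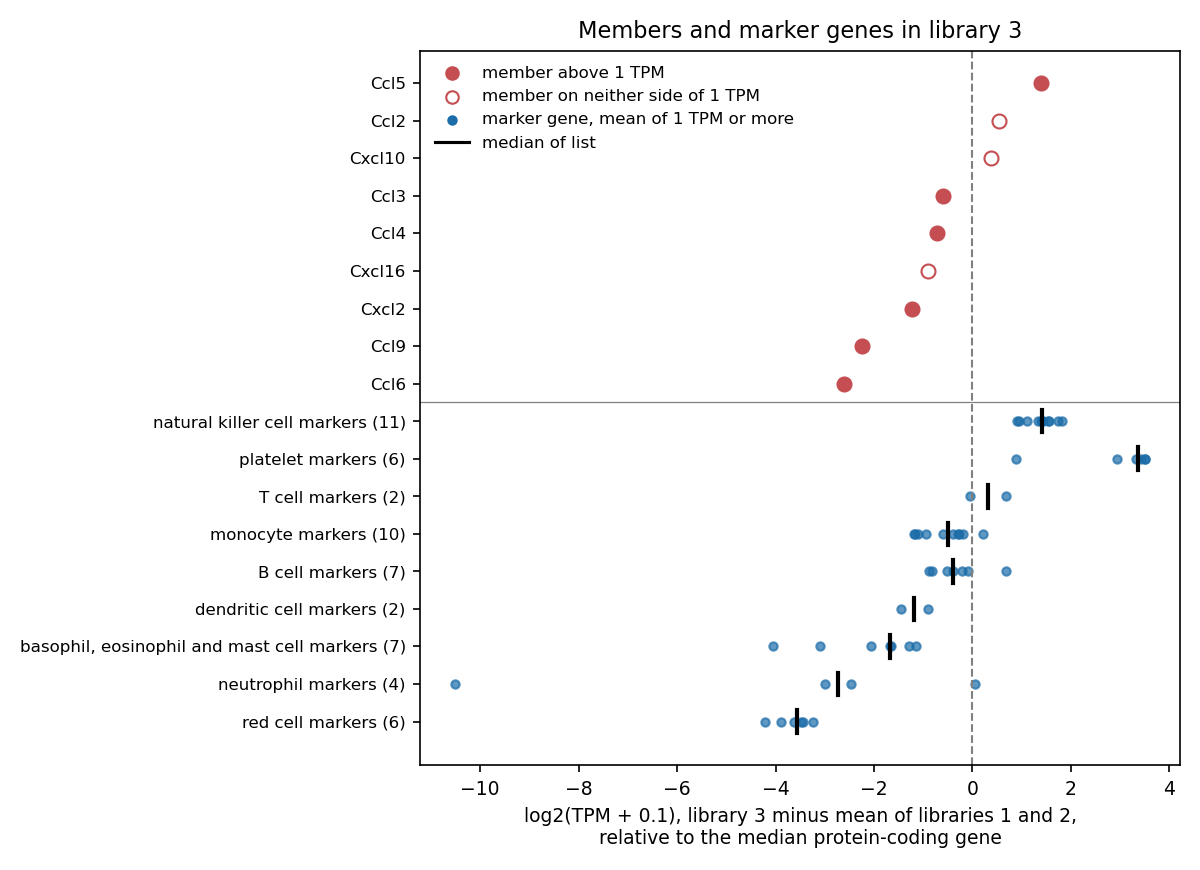
Difference in log2(TPM + 0.1) between library 3 and the mean of libraries 1 and 2, relative to the median protein-coding gene, for each ligand (red, open where the level was on neither side of 1 TPM) and each marker gene with a mean of 1 TPM or more (blue, with the list's median as a bar). Ccl5 at 1.40 lies within the natural killer cell markers, Ccl6 at -2.61 and Ccl9 at -2.24 are the lowest ligands, and the positive values of Ccl2 and Cxcl10 turn negative with a pseudocount of 1 TPM.

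Cxcl2, a ligand of the neutrophil receptor Cxcr2 that macrophages release early in inflammation, was the expressed CXC member. Cxcl2 (ENSMUSG00000058427.10, chromosome 5, 90903871 to 90905938, plus strand) had 5.90, 7.45 and 3.42 TPM in libraries 1, 2 and 3, from 797, 1037 and 359 expected counts. Its level was lowest in library 3, 1.95 times below the mean of libraries 1 and 2, 6.68 TPM. The mean was 5.59 TPM ± 2.03 (SD, n = 3), above 1 TPM (edgeR adjusted p = 1.1e-06) and 3552nd of 21951 protein-coding genes.

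Cxcl10, a ligand of the lymphocyte receptor Cxcr3 induced by interferons, was detected at low counts. Cxcl10 (ENSMUSG00000034855.13, chromosome 5, 92346638 to 92348889, minus strand) had 0.10, 0.33 and 0.37 TPM, from 22, 59 and 24 expected counts. Its mean of 0.267 TPM ± 0.146 (SD, n = 3) was not called in either direction (edgeR adjusted p = 0.11). The counts of libraries 1 and 3 were close, and the TPM intervals in the deposited tables, whose level is not stated, overlapped, at 0.0812 to 0.283 TPM in library 1 and 0.194 to 0.811 TPM in library 3. In library 3, 0.20 of the 0.37 TPM came from 2.38 counts on an intron-retaining transcript of 344 bases, so the TPM of the libraries gave no firm order.

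The promoters of Cxcl2 and Cxcl10 are shown because both genes are textbook NF-kappaB targets and differed in mean level here, with 20.96 times as much TPM for Cxcl2. The sequences are the 250 bases before the RefSeq start (GRCm38.p6), at chr5:90903649-90903898 on the plus strand for Cxcl2 and chr5:92348890-92349139 on the minus strand for Cxcl10. Capitals mark matches on either strand to the general form of an NF-kappaB site, GGG and CC with any 5 bases between them, with overlapping matches joined.
Cxcl2: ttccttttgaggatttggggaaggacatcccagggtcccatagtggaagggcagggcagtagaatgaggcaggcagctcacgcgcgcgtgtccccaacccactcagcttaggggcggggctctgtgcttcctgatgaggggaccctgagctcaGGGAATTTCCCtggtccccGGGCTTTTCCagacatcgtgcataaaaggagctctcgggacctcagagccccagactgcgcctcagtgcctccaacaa
Cxcl10: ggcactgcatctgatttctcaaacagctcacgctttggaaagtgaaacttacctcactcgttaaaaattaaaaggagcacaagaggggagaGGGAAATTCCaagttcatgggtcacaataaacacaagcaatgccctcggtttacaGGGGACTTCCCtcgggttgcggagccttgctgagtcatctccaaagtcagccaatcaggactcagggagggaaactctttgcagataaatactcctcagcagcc

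In each of these promoters 21 bases belong to such matches. The form was also found in the Ccl9 promoter, so in 3 of the 5 ligand promoters, beside 45.8% of all 32851 promoters. The interferon response letters, GAAA followed after any 2 bases by GAAA and searched on both strands, were found in the Cxcl10 promoter alone among the 5, from -213, beside 2.98% of all promoters. The AP-1 letters TGANTCA, searched on both strands, were found in the Cxcl10 and Ccl9 promoters, beside 6.75% of all promoters. A match describes the letters and does not show a bound site.

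Ccl2, or MCP-1, is the ligand of Ccr2 that draws monocytes from marrow to inflamed tissue. Ccl2 (ENSMUSG00000035385.5, chromosome 11, 82035571 to 82037453, plus strand) had 0.53, 0 and 0.35 TPM in libraries 1, 2 and 3, from 38, 0 and 20 expected counts. The 0 counts of library 2 allow up to 0.0312 TPM (3 counts), which covers counting error only. Ccl2 was therefore detected in 2 of 3 libraries, and its level differed from 1 TPM in neither direction by the test (edgeR adjusted p = 0.32).

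Cxcl16 is made as a membrane protein whose chemokine domain is shed by Adam10 and Adam17, and it binds Cxcr6 on T and natural killer cells. Cxcl16 (ENSMUSG00000018920.11, chromosome 11, 70453983 to 70459984, minus strand) had 0.29, 0.33 and 0.17 TPM, from 40, 50 and 21 expected counts. All 3 values were low, with a mean of 0.263 TPM ± 0.0833 (SD, n = 3), not called in either direction (edgeR adjusted p = 0.092). In limma the adjusted p for a level below 1 TPM was 0.0080 for Cxcl16, 0.010 for Cxcl10 and 0.021 for Ccl2.

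Not every step in the order of mean levels held in each library. Of the 8 pairs of neighbours, 4 stood in 1 order in 3 of 3 libraries: Ccl4 over Ccl3, Ccl3 over Ccl9, Ccl9 over Cxcl2 and Cxcl2 over Ccl2. Their mean log2 differences were 0.30 ± 0.22, 1.09 ± 0.95, 2.21 ± 0.59 and 4.15 ± 1.81 (SD, n = 3 each), each with an exact sign-flip p of 0.25, again the lowest possible. Over 3 libraries the other 4 pairs did not differ beyond their spread: Ccl5 minus Ccl6 was 0.72 ± 2.32 and Ccl6 minus Ccl4 was 0.10 ± 1.12, while Ccl2 minus Cxcl10 was -0.17 ± 1.88 and Cxcl10 minus Cxcl16 was -0.05 ± 0.88 (log2, SD, n = 3 each). Ccl5 stood above Ccl6 in library 3, by 10.5 times, and below it in libraries 1 and 2, at 0.715 and 0.592 times its level. Ccl6 stood above Ccl4 in libraries 1 and 2, by 0.49 and 0.98, and below it in library 3, at -1.15 (log2). Without library 3, 6 of the 8 pairs stood in 1 order: Ccl5 minus Ccl6 was -0.62, Ccl6 minus Ccl4 0.73, and Ccl3 minus Ccl9 0.54. Ccl6 minus Ccl4 was -0.086 without library 1 and -0.33 without library 2, so its direction rests on which library is left out.

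The share of counts on transcripts not annotated as protein-coding varied between ligands and libraries. Ccl3 and Ccl4 have 1 annotated transcript each, which codes. Of the Ccl6 counts, 1.181%, 1.495% and 2.133% fell on its 2 intron-retaining transcripts in libraries 1, 2 and 3, and of the Ccl5 counts 13.05%, 10.97% and 9.52% on a single intron-retaining transcript. For Cxcl10 and Cxcl16 the share was large. All 22 counts of Cxcl10 in library 1 fell on an intron-retaining transcript of 2230 bases, and the share on transcripts not annotated as protein-coding was 66.3% and 82.6% in libraries 2 and 3. For Cxcl16 it was 100%, 100% and 39.8%, with the protein-coding transcript at 0, 0 and 12.7 counts. Such shares are larger than the median of 4.02% over 1951 protein-coding genes with several transcripts and 20 to 200 summed counts. That median pools the counts of all libraries and includes genes whose transcripts all code. It is thus not a like measure for shares within a single library, and the comparison is a description with no test. The coding level was thus 0, 0.18 and 0.06 TPM for Cxcl10 and 0, 0 and 0.07 TPM for Cxcl16.

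Cxcl2 changed its makeup between libraries. An intron-retaining transcript held 65.0% of its counts in library 3, against 6.58% in library 1 and 16.4% in library 2. The median share on transcripts not annotated as protein-coding was 10.2% over 9127 genes with several transcripts and more than 200 summed counts. That median also pools the libraries and includes genes whose transcripts all code, so it is not a like measure for a single library. Cxcl2 coding transcripts stood at 1.79 TPM in library 3, against 5.65 and 6.71 TPM in libraries 1 and 2. Ccl9 differed between its scales: a short noncoding transcript of 398 bases held 5.83%, 7.08% and 2.43% of its counts but 44.0%, 47.8% and 24.8% of its TPM, since TPM divides by length. Its coding transcript of 3006 bases therefore stood at 20.8, 21.6 and 7.60 TPM, and stayed lowest in library 3. Of the 20 counts of Ccl2 in library 3, 51.7% fell on an intron-retaining transcript, against 0 of 38 counts in library 1.

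**Figure D4:**
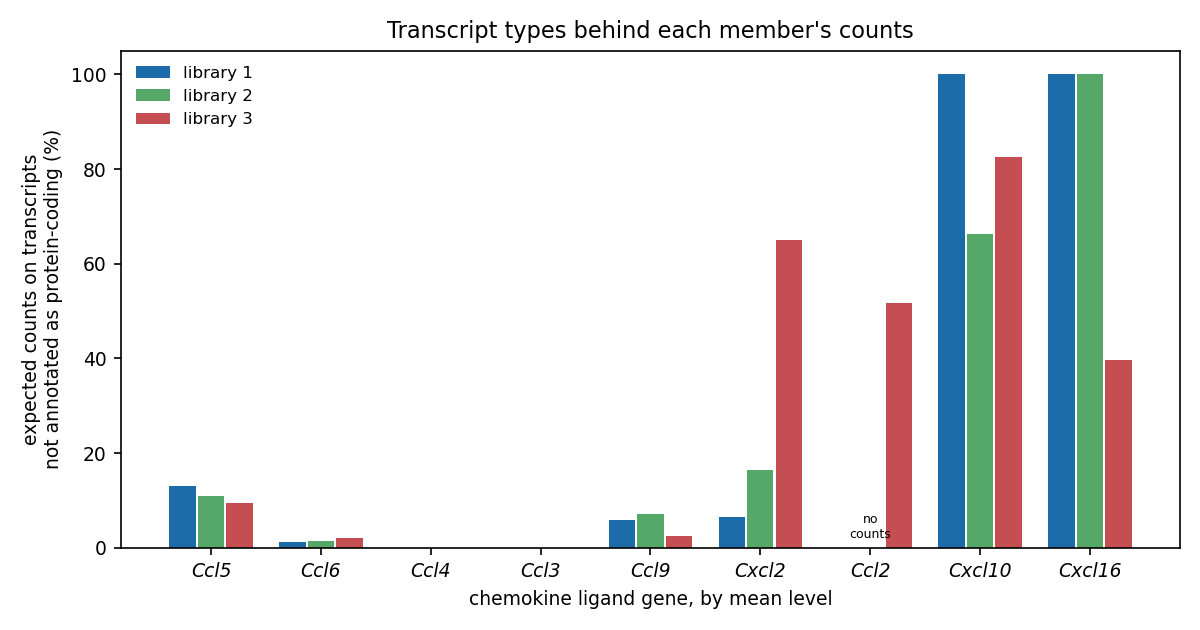
Percent of each ligand's expected counts on transcripts not annotated as protein-coding, as bars for libraries 1, 2 and 3. Bars are absent for Ccl3 and Ccl4, low for Ccl5, Ccl6 and Ccl9, 65.0% for Cxcl2 in library 3 and between 39.8% and 100% for Cxcl10 and Cxcl16.

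Of the 9 ligands, 4 overlap a gene on the opposite strand, and the sources used here do not give whether the counting used strand, so reads of the partners cannot be told apart. Cxcl10 lies within Art3, which had 0.16, 0.27 and 0.13 TPM from 11, 33 and 5 counts, values of the same order as those of Cxcl10. Ccl6 lies within the noncoding E230016K23Rik, with 0.44, 0.07 and 0.17 TPM. Cxcl16 shares 552 bases with Zmynd15 (0, 0.02 and 0 TPM), and Ccl2 lies within Gm17268, which had 0 counts in each library. No full near-identical copy of a ligand was found: Cxcl2 shared 98.3% identity with Cxcl3 over 116 bases, and Ccl6 shared 75.5% with Ccl9 over 290 bases. A stretch of 154 bases in Ccl9, 5.12% of its transcript, matched Git2 at 96.1% identity.

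The expressed CC ligands were neighbours on chromosome 11. Ccl5, Ccl9, Ccl6, Ccl3 and Ccl4 follow each other within 139 kb, and all 5 chemokine genes of this block lay above 1 TPM. Of the protein-coding genes tested, 54.1% did so. The block was bounded by Ccl5 and Ccl4, and all 5 are ligands of the group already counted above 1 TPM, so this adds no separate count. Ccl2 begins a second block of 6 chemokine genes on the same chromosome, in which Ccl7, Ccl11, Ccl12, Ccl8 and Ccl1 had 0 counts in every library, which allows at most 0.0268 to 0.122 TPM by gene and library. On chromosome 5, Cxcl2 ends a block of 7 chemokine genes in which the platelet chemokines Ppbp and Pf4 also lay above 1 TPM, while Cxcl1, 12.6 kb from Cxcl2, had 0, 0.01 and 0.14 TPM. Cxcl10 lies between the other interferon-induced ligands Cxcl9, with 0, 0 and 0.02 TPM, and Cxcl11, annotated as a polymorphic pseudogene, with 0 in every library.

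**Figure D5:**
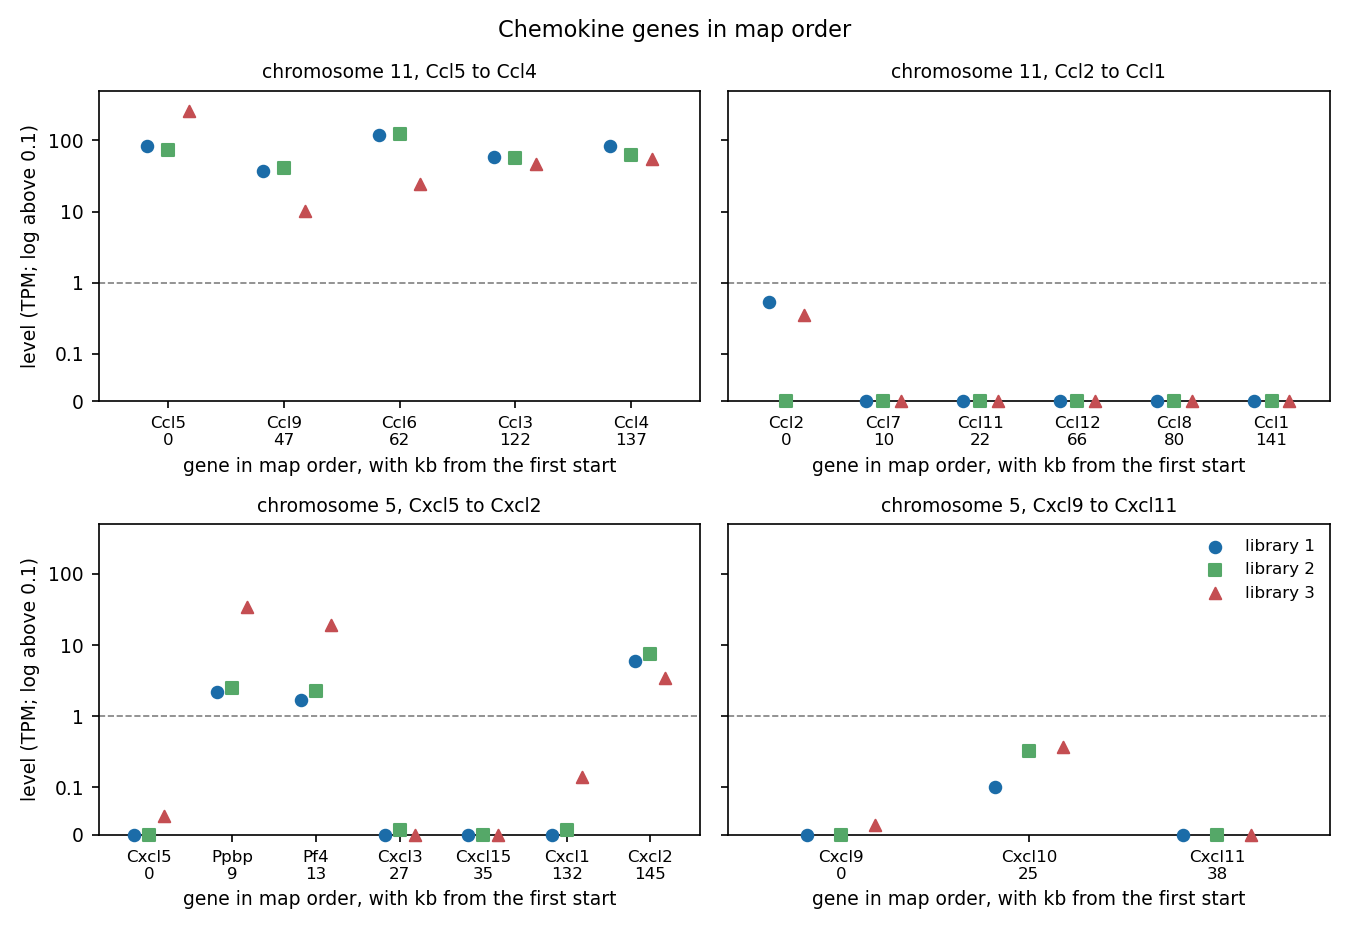
TPM in libraries 1, 2 and 3 (log axis above 0.1 TPM, linear below) of the chemokine genes of 4 blocks, in map order with the distance in kb from the first gene's start. All 5 chemokine genes from Ccl5 to Ccl4 lie between 10.1 and 255 TPM, the block that begins with Ccl2 is at or near 0, and of the 7 genes from Cxcl5 to Cxcl2 only Ppbp, Pf4 and Cxcl2 stand above 1 TPM.

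Beyond the 9 ligands, 7 of 29 further chemokine ligand genes had enough counts to be tested, and 17 were at 0 in every library. Of those tested, 4 lay above 1 TPM, beside 54.1% of the protein-coding genes tested. Xcl1, the lymphotactin of natural killer and T cells, had 8.45, 7.64 and 19.37 TPM, and 1.14, 1.21 and 1.07 TPM per 100 TPM of natural killer cell markers. Ppbp and Pf4, stored in platelet granules, had 2.17, 2.47 and 33.7 TPM and 1.68, 2.23 and 19.2 TPM. Both are also on the platelet list, whose 8 genes, led by Ppbp and Itga2b, summed to 99.4 TPM in library 3 and 15.4 and 11.4 TPM in libraries 1 and 2, with none at 0 in every library. Ccl25, a ligand of Ccr9, had 1.03, 2.62 and 1.82 TPM (edgeR adjusted p = 0.043). With library 2 left out, Ccl25 was not called (edgeR adjusted p = 0.302). With library 3 left out, Pf4 was not called (edgeR adjusted p = 0.137).

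The receptors that match the ligands were unevenly expressed. Of 18 chemokine receptors, 15 had enough counts to be tested. Among these, 7 lay above 1 TPM and 1 below, beside 54.1% of the protein-coding genes tested above and 6.35% of all genes tested below. Cxcr4, the receptor for marrow retention, was highest at 49.3 TPM ± 6.75 (SD, n = 3). The gene below, Ccr9, was not called with any 1 library left out (edgeR adjusted p = 0.0519 to 0.154), and Cxcr5, called above, was not called without library 1 (edgeR adjusted p = 0.0958) or library 2 (edgeR adjusted p = 0.120). Ccr2, the receptor of Ccl2, had 27.3, 25.2 and 32.2 TPM, so the receptor was expressed where its ligand averaged 0.293 TPM. Ccr1, a receptor of Ccl3, Ccl5, Ccl6 and Ccl9, had 2.40, 2.07 and 0.39 TPM and was not called in either direction (edgeR adjusted p = 0.15). Cxcr2 had 1.09, 0.69 and 0.36 TPM, Cxcr3 0.77, 1.01 and 1.75 TPM and Cxcr6 0.20, 0.12 and 0.08 TPM, and none of these 3 receptors lay on either side of 1 TPM. Ccr3, an eosinophil and basophil receptor for Ccl5, had 12.4, 11.6 and 0.17 TPM, and Cx3cr1, the fractalkine receptor, 24.6 TPM ± 2.62 (SD, n = 3). Ccr7, a receptor for lymph node entry, had 3.27, 2.74 and 1.37 TPM. Of 5 atypical receptors, which bind chemokines without the usual signalling, 3 were tested. Only the chemerin-binding Ccrl2, at 6.04 TPM ± 2.57 (SD, n = 3), lay above 1 TPM.

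Most listed genes that process or control chemokines lay above 1 TPM, beside 54.1% of the protein-coding genes tested. Of 5 proteases, 4 were tested and 3 lay above 1 TPM. These were the Cxcl16 sheddases Adam10 at 6.04 TPM ± 1.36 and Adam17 at 11.3 TPM ± 0.907, and Dpp4, which trims chemokine N-termini, at 1.63 TPM ± 0.229 (SD, n = 3 each). Dpp4 was not called without library 1 (edgeR adjusted p = 0.136) or without library 2 (edgeR adjusted p = 0.0943). The gelatinase Mmp9 had 1.57, 1.82 and 0.18 TPM and was not called. All 15 of 15 listed regulators of chemokine transcription and mRNA decay lay above 1 TPM, beside the same 54.1% of protein-coding genes tested. Among NF-kappaB inhibitors and cofactors, Nfkbia had 37.8, 45.1 and 22.96 TPM and Nfkbiz 29.4, 28.7 and 37.2 TPM. The mRNA decay factor Zfp36l2 had 37.5 TPM ± 2.64 (SD, n = 3), the signalling brake Tnfaip3 35.5 TPM ± 4.54 (SD, n = 3), and the interferon-induced factor Irf1 35.7 TPM ± 4.41 (SD, n = 3). The AP-1 genes Fos and Jun and the decay factor Zfp36, of which Fos and Zfp36 were chosen after their values were seen, were highest in library 3, with 57.7, 66.2 and 41.5 TPM, against 22.7, 14.8 and 16.2 TPM in library 1 and 12.9, 13.9 and 13.1 TPM in library 2. Of 6 inflammatory cytokines, 5 were tested and 4 lay above 1 TPM. These were Il1b at 24.2 TPM ± 6.38, Ifng at 10.3 TPM ± 6.85, Il6 at 9.30 TPM ± 7.29 and Tnf at 4.56 TPM ± 1.14 (SD, n = 3 each). Il6 was low in library 3, with 12.8, 14.2 and 0.92 TPM, and Ifng high, with 6.24, 6.53 and 18.2 TPM.

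Among 3861 protein-coding genes with a mean of 5 TPM or more, those whose levels varied most like each ligand were found by the distance between the 3 centred log2 values, a description over 3 libraries. Closest to Ccl5 were Gimap8 (14.0, 12.4 and 43.0 TPM, distance 0.0176), Dok2 (0.0182) and Il12rb2 (0.0245). Closest to Ccl6 were Rab44 (8.74, 9.22 and 2.05 TPM, distance 0.192), Csf1 (0.218) and Cd24a (0.299), and closest to Ccl9 were Cks2 (0.106), Rab44 (0.123) and Fam213a (0.191). Rab44 is thus on both lists. Closest to Cxcl2 were Hist1h2ai (0.0331), Mpc1 (0.0380) and Naaa (0.0406). For the sparsely counted Ccl2 and Cxcl10 the closest genes were Zfp932, 4921524J17Rik and Mpnd (0.0913 to 0.598) and Tbc1d9b, Ubr3 and 3110040N11Rik (0.0551 to 0.120).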

How the data were processed

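Total RNA of 3 monocyte libraries was quantified by the authors with the GENCODE annotations M21 and M4 on mm10, per the notes deposited with the files. The deposited gene tables hold an expected count per gene and a TPM, which the authors scaled over every row, small RNAs included; the deposited transcript tables also give the percent of a gene's TPM held by each transcript. Further deposited tables, made from the reads on M21, list estimated counts and TPM of transcripts. Programs and the strand setting of counting are not stated.

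M21 gene values were used. Symbols came from the transcript names. Expected counts were rounded and each gene with a summed count of 10 or more was fitted with edgeR 4.0.16 (intercept only; offset the log of the count that 1 TPM stands for; F computed from the deviances), with Benjamini-Hochberg adjustment at 0.05, after a run on simulated data. Neighbouring ligands were compared within libraries on log2(TPM + 0.1). Alternatives were limma 3.58.1, DESeq2 1.42.0, other offsets, filters, tables, levels and pseudocounts, each library left out, and TPM over protein-coding genes, which was chosen after seeing the data. Sequence relatives were searched with BLAST+ 2.17.0 (100 aligned bases or more). Promoters of 5 of the 9 ligands were matched in a RefSeq table. Named genes beside the ligands were, from each list, the highest 6 with a mean of 1 TPM or more and each ligand's receptor; of marker lists, the 2 highest and those at 0; a listed receptor is not reported here. Likeness used ligands whose highest library was over 2 times the lowest. The ligands and lists were chosen with earlier results of these data known.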

Additional observations from a re-analysis of the deposited data

How the results depend on the processing

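The 6 ligands above 1 TPM were above in every alternative run. Calls below 1 TPM were fragile. The count of all genes below, 1123 in edgeR, was 6304 in limma, 3974 in DESeq2, 1805 in the tables made from the reads, 176 against a level of 0.5 TPM, 3396 against 2 TPM and 251 to 1085 with 1 library left out. The ligands below numbered 3 in limma, 2 in DESeq2 (Cxcl16 and Cxcl10) and 2 against 2 TPM, and 0 elsewhere. With TPM rescaled over protein-coding genes, 12092 genes were called above and 1 below, and the estimates of Cxcl16, Cxcl10 and Ccl2 turned to 1.32, 1.33 and 1.40 (log2) above 1 TPM, not called. With a pseudocount of 1 TPM, the library 3 difference turned to -0.11 for Ccl2 and -0.054 for Cxcl10, and Cxcl2 minus Ccl2 was 2.32; in the tables made from the reads Ccl9 minus Cxcl2 was 2.93. Of 48 recomputed differences between neighbours, 46 moved by less than their SD, but some of the 46 turned sign. Ccl5 minus Ccl6 turned without library 3, Ccl6 minus Ccl4 without library 1 or 2, and Cxcl10 minus Cxcl16 without library 1. Ccl2 minus Cxcl10 turned with a pseudocount of 1 TPM, with M4 and without library 2. Of 27 recomputed library 3 differences, 16 moved by less than the SD between libraries 1 and 2, 9 moved more and 2 turned sign. The cause of these changes was not tested. No paired analysis was possible because the series holds 1 group, with no second group to pair its libraries with. Depth limits Ccl2, Cxcl10 and Cxcl16, with at most 59 counts in a library.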
